A study of Mus musculus with 564 samples.

Results

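The sustained LPS gains are 1388 of the 59190 cis-regulatory elements (CREs) measured in mouse bone marrow-derived macrophages (BMDMs), or 2.35%. They were chosen by 4 differences in vehicle-treated cells. For each CRE the difference D was the log2 of the mean of both DMSO libraries plus 5 after LPS, minus the same quantity in unstimulated (UT) DMSO cells. A CRE was taken when its mean DMSO UT value was at least 10, which 45344 CREs reached, and when D was at least 1.5 at 30 min, 1 h, 2 h and 4 h of LPS. The DMSO LPS and UT libraries therefore chose the members, so their values are given as a description with no test. Tests were made only in libraries that the choice did not use.

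BMDMs are primary macrophages grown from the marrow of wild type mice, which the study's methods describe as young males of the C57/BL6 strain. Before stimulation they received, for 1 h, the vehicle DMSO or 1 clinical kinase inhibitor (CKI) out of 58, each at a dose set for that compound. They were then stimulated with lipopolysaccharide (LPS) or interleukin 4 (IL-4), each at 10 ng/mL, or left UT, and histone H3 acetylated at lysine 27 (H3K27ac) was measured by ChIP-seq. The series held 564 libraries, with 2 DMSO libraries in each of 9 conditions and 546 from CKI-treated cells. All cells were wild type, and every library, controls included, carried the same pre-treatment step. The CKI libraries comprised 73 UT, 241 LPS and 232 IL-4 libraries, mostly 1 per compound, stimulus and time. For the UT samples the time is 4 h in one label and 0 in the title, and they serve as 1 baseline for all times. Nothing in the labels says that DMSO replicates, or the further CKI libraries with the suffix b, came from separate animals or cultures. The p-values therefore measure the spread between libraries, which may be technical.

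LPS, a component of the bacterial outer membrane, is sensed by TLR4 and activates the NF-kB, MAP kinase and interferon regulatory factor (IRF) pathways. NF-kB and AP-1 enter the nucleus or are activated within minutes and bind at enhancers that lineage factors such as PU.1 keep accessible, where histone acetyltransferases then place H3K27ac. Enhancers differ in how long the mark lasts, because feedback inhibitors end part of the first wave while secondary factors, among them interferon-induced STATs and IRFs, sustain or start others. IL-4 acts through STAT6 and directs macrophages to an alternative programme.

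The members lay mostly away from promoters. Of the 1388 CREs, 650 (46.8%) were intergenic, 614 (44.2%) intronic, 97 (6.99%) had their centre within 1 kb of a protein-coding transcription start (here called promoter CREs), 17 lay in untranslated regions and 10 in coding exons. Among all CREs with a DMSO UT value of at least 10, promoter CREs made up 23.7%. The median distance to the nearest protein-coding start was 21487.5 bp in the members and 11220.5 bp in that background, and 371 members (26.7%) lay more than 50 kb away. They ranged from 1468 to 16165 bp in width with a median of 1812.5 bp. The members had 828 nearest protein-coding genes, and a member is named below after the nearest one, which does not show which gene it acts on.

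The sequence at the centre of the members is shown for 4 of them, each with the strongest response in CKI-treated cells among the members of its gene list. Every line gives the central 300 bases of the CRE on the plus strand of mm10, read from the reference genome, and capitals mark matches to the NF-kB motif or to the AP-1 motif TGANTCA. The Tnfaip3 window (chr10:19077976-19078275) held AP-1 matches at bases 1 and 243, counted from its 5′ end. The Hivep2 window (chr10:14048533-14048832) held an NF-kB match, GGGACTTCCC, at base 122 and an AP-1 match at base 210. The Gbp5 window (chr3:142499081-142499380) held AP-1 matches at bases 162 and 227. The Edn1 window (chr13:42372265-42372564) held neither and is shown as an example of the 895 members (64.5%) without a match to either motif in this window. The Ccl5 and Ripk2 windows, drawn by the same rule, also held neither and are not shown.
Tnfaip3: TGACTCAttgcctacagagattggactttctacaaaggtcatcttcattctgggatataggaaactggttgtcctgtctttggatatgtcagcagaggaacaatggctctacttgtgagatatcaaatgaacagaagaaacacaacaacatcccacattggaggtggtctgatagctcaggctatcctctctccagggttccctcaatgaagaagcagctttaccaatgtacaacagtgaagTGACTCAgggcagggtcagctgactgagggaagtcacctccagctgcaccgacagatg
Hivep2: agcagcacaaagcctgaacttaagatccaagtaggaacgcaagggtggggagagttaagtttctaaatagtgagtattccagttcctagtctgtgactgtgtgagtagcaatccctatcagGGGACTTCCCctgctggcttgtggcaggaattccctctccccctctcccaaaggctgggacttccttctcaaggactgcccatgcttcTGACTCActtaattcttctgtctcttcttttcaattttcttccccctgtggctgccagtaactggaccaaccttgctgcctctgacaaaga
Gbp5: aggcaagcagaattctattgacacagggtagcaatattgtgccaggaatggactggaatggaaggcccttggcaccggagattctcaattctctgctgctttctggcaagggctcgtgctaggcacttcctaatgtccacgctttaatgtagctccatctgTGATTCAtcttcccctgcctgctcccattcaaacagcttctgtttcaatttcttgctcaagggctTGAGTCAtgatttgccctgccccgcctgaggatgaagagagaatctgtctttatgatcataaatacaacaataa
Edn1: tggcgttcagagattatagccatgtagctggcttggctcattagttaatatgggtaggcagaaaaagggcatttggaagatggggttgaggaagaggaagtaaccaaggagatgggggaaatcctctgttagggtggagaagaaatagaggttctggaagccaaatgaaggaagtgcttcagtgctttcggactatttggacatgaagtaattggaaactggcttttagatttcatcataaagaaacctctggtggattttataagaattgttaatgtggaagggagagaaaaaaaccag

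The NF-kB motif was found in the central 300 bases of 226 members (16.3%), against 5.98% of all CREs and 4.51% of the RefSeq promoter windows of the same length, and both strands were searched. It was found in 10.7% of 532 early transient LPS gains (D of at least 1.5 at 30 min and under 0.5 at 4 h) and in 5.08% of 1436 late LPS gains (D under 0.5 at 30 min and at least 1.5 at 4 h). The AP-1 motif was found in 24.1% of members, 34.6% of early transient gains, 17.3% of late gains, 20.2% of all CREs and 7.81% of promoter windows. Among these sets the NF-kB share was thus highest in the members, the AP-1 share in the early transient gains. The IRF motif AANNGAAA was found in 40.4% of members, 29.9% of early transient gains, 57% of late gains, 31.3% of all CREs and 23.9% of promoter windows, which places the members between the other sets of gains. These shares were set side by side with no test.

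The remaining motifs are given for the members, all CREs and promoter windows. C/EBP (TTGCNNAA), the motif of a family that marks myeloid enhancers, was found in 17.7% of members, 14.7% of all CREs and 10.8% of promoter windows. STAT (TTCNNNGAA) was found in 12%, 9.4% and 8.30%, and PU.1 (AGGAAGT) in 17.1%, 21.7% and 9.35%. The CREB/ATF motif TGACGTCA was found in 0.720% of members, 0.848% of all CREs and 1.79% of promoter windows. EGR (GCGNGGGCG) was found in 0.432%, 2.13% and 5.55%, E-box (CACGTG) in 3.82%, 5.66% and 7.15%, and the CArG box of serum response factor in 1.66%, 1.49% and 1.63%. The letters of the CREB/ATF motif do not contain the AP-1 motif, while matches of different motifs, such as IRF and PU.1, can share bases. A match describes letters in a window and is not a measured binding site.

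**Figure D1:**
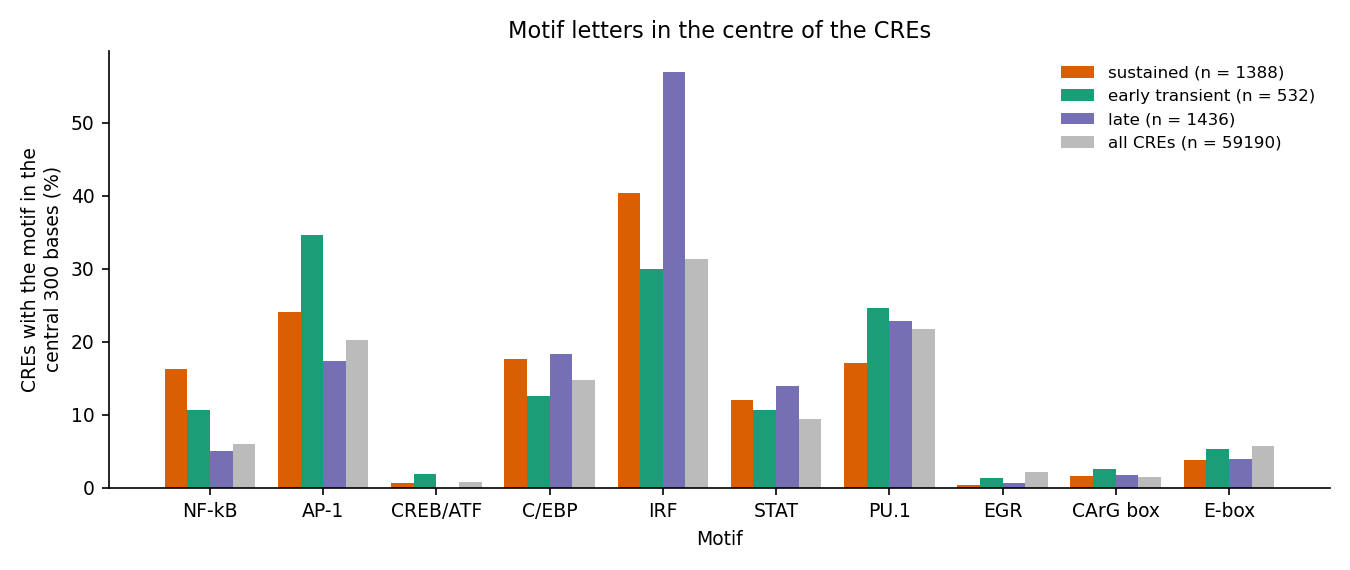
Share of CREs (percent, vertical axis from 0) with each of 10 motifs in the central 300 bases, for sustained LPS gains, early transient gains, late gains and all CREs (bars). The NF-kB bar is highest for the sustained gains (16.3%), the AP-1 bar for the early transient gains (34.6%) and the IRF bar for the late gains (57%).

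The NF-kB and AP-1 motifs occurred together in 67 members (4.83%), against 1.28% of all CREs. Outside promoters the NF-kB share of the members was 16.7%, against 6.07% of all CREs there. The AP-1 share was 24.9% against 23.6% there, the IRF share 40.2% against 34.6% and the PU.1 share 17.4% against 24.6%. The NF-kB share was 21.3% in the 520 members up to 1700 bp wide, against 5.91% of all CREs of that width. At that width the AP-1 share was 32.3% against 23.9%, the IRF share 44.6% against 33.8% and the PU.1 share 22.5% against 26.6%. The early transient and late gains were not split by width. In a central window of 500 bases the NF-kB share was 19.2% against 8.36%. The 226 members with the NF-kB motif had a median log2 difference between LPS and UT of 1.66 in CKI-treated cells, averaged over the 4 times, and the 1162 members without it had 1.56.

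In DMSO cells the median member went from 25 normalized reads in UT (27 and 24 in replicates 1 and 2) to 170.2 at 30 min of LPS (160 and 181). It was at 221 at 1 h (224 and 216), 254.5 at 2 h (256 and 255) and 215.8 at 4 h (230 and 199). That the LPS medians lay far above those of UT was required by the choice. The highest medians were those at 2 h. The median D was 2.27, 2.63, 2.69 and 2.5 in order of time and the highest was 5.82, at 4 h, while the median over all CREs with a UT value of at least 10 lay between -0.17 and -0.08. Replicates of 1 condition differed in these members by a median of 0.12 to 0.24 on the log2 scale. The largest D fell at 30 min for 245 members (17.7%), at 1 h for 290 (20.9%), at 2 h for 496 (35.7%) and at 4 h for 357 (25.7%).

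The threshold on D was passed narrowly by some CREs. The lowest D of the last members taken was 1.5 at Fcrlb and 1.501 at Zeb2 and Arhgap26, and the first CREs left out had 1.499 at Lmo4 (chr3:143645904-143647800), 1.497 at Iqgap2 and 1.497 at Togaram2. With replicate 1 alone at 30 min, 1234 members reached 1.5, and with replicate 2 alone 1353. These values describe the choice and support nothing else.

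After IL-4, whose DMSO libraries did not enter the choice, the median member was at 40.5 normalized reads at 30 min, 31 at 1 h, 25.75 at 2 h and 28.5 at 4 h. The median difference from UT was 0.44, 0.15, -0.09 and 0.00, and D reached 1.5 after IL-4 in 159, 118, 91 and 83 members. Over all CREs with a UT value of at least 10 the median difference was 0.05, -0.02, -0.10 and 0. IL-4 values thus lay above UT at 30 min in the median member and near UT at 2 h and 4 h. The DMSO UT libraries in these differences did enter the choice, so the differences describe the members and are not independent of it.

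**Figure D2:**
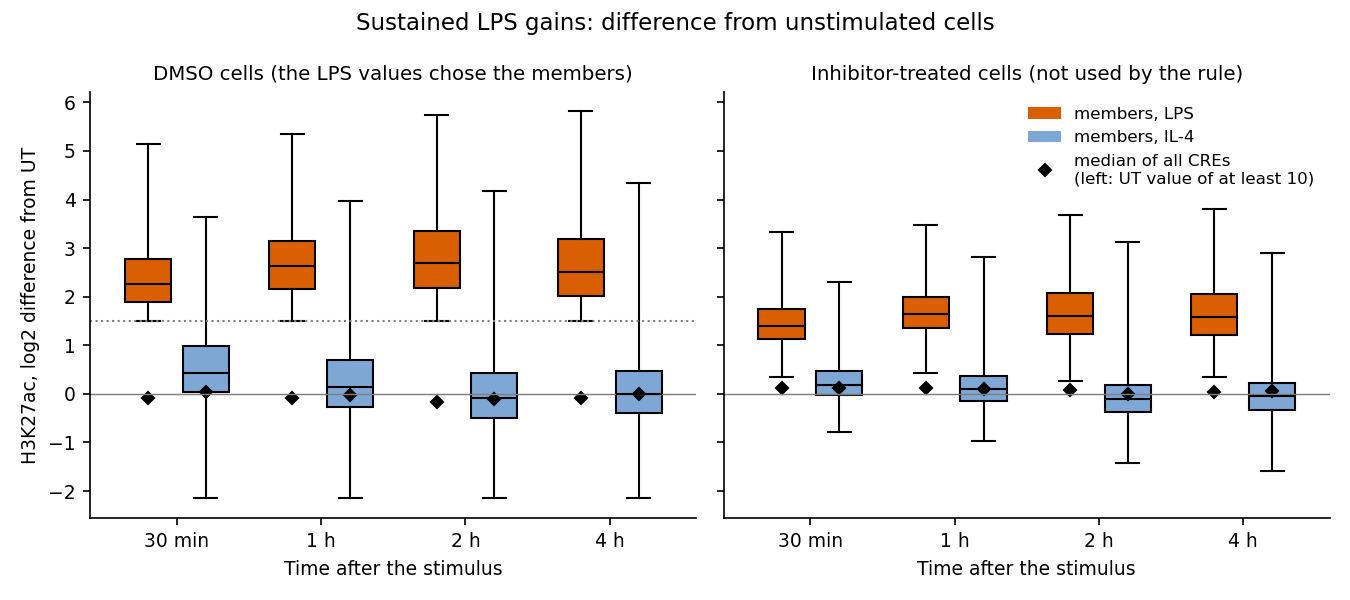
Log2 difference from UT (vertical axis) of the 1388 members at 30 min, 1 h, 2 h and 4 h of LPS or IL-4, in DMSO cells (left) and in CKI-treated cells (right). Boxes show median and quartiles, whiskers the range, diamonds the median of all CREs, and the dotted line the threshold of 1.5 that chose the members on the left. The LPS boxes lie above the IL-4 boxes at every time in both panels.

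The libraries differed technically in ways that bear on the CKI results. Scaled totals ranged from 4066894, in the 30 min LPS library of PH797804, to 12391409. Contrast, the median of the strongest 10% of CREs over that of the weakest 10%, was 53.0 to 73.8 in DMSO LPS libraries and 3.37 to 50.25 in CKI LPS libraries, with a median of 14.17. Of 10 macrophage marker genes, 7 had a promoter CRE in the table, with DMSO UT values from 226 at Mertk to 2082 at Spi1, and Csf1r, Adgre1 and Cd68 had none. Of the marker genes for other cells, Cd3d (125) and Ms4a1 (70) were above 20, while the promoter CREs of Pax5, Ebf1, S100a8, Camp, Flt3, Col1a1, Pdgfra and Pdgfrb lay between 0.5 and 12.5. No member was nearest to a marker of macrophages, T cells, B cells, neutrophils or dendritic cells, and 1 was nearest to the fibroblast marker Dcn.

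The first comparison asked whether the LPS gain of these CREs was present in cells treated with other agents, using only CKI libraries. All 1388 members had a positive log2 difference between LPS and UT at each of the 4 times. By limma, at an adjusted p under 0.01 and a log2 difference over 1, the call used for all stimulus contrasts below, 1182 members (85.2%) were higher at 30 min, where 6.04% of all 59167 tested CREs were. At 1 h 1292 members (93.1%) were higher, against 8.42% of all CREs, at 2 h 1227 (88.4%) against 10.4%, and at 4 h 1226 (88.3%) against 10.2%. The gain was called at all 4 times for 996 members (71.8%), against 2.84% of all CREs.

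The median log2 difference of the members was 1.39 at 30 min, 1.65 at 1 h, 1.61 at 2 h and 1.58 at 4 h in CKI-treated cells, while that of all CREs was between 0.04 and 0.12. Standard errors of these coefficients ranged from 0.038 to 0.41. The UT level of the median member was higher in CKI libraries, with 35 to 102 normalized reads and a median of 49, than in the DMSO libraries with 24 and 27. These values cannot be set against the DMSO values as a test of size, because the DMSO LPS and UT libraries chose the members. Compound treatment, library contrast and the run of the compound in the table cannot be told apart either, since no DMSO library lies within a run of CKIs. A run is a consecutive block of CKIs in column order, and the labels name no batch. Members also share genomic neighbourhoods, as described below, so that they are not 1388 independent observations.

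The share of all CRE signal that fell in the members separated LPS from the other libraries. In DMSO cells it was 1.08% to 1.16% in UT, 1.32% to 1.77% after IL-4 and 5.96% to 7.97% after LPS. In CKI-treated cells it was 1.28% to 2.01% in 73 UT libraries (median 1.56%), 1.29% to 2.21% in 232 IL-4 libraries (1.73%) and 2.79% to 7.15% in 241 LPS libraries (5.19%). No CKI LPS library overlapped with an IL-4 or UT library, while in DMSO cells the choice itself set LPS apart from UT. The median over CKI libraries was 4.51% at 30 min, 5.20% at 1 h, 5.59% at 2 h and 5.45% at 4 h of LPS.

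**Figure D3:**
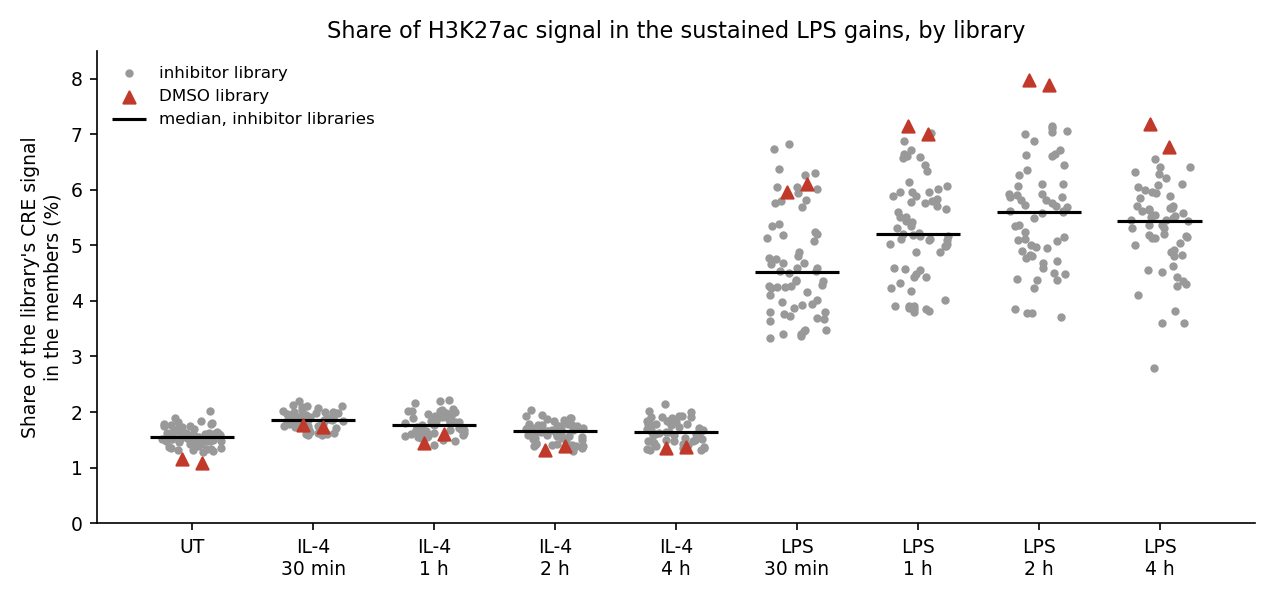
Percent of the total CRE signal of each library that lies in the 1388 members (vertical axis), by stimulus and time (horizontal axis). Grey points are CKI libraries with their median as a black line, and red triangles are DMSO libraries. The lowest LPS library (2.79%) lies above the highest IL-4 or UT library (2.21%).

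The same libraries show how the members differ from other LPS gains. The early transient gains had a median difference from UT of 1.08 at 30 min, 0.75 at 1 h, -0.01 at 2 h and -0.10 at 4 h in CKI-treated cells. The late gains had 0.03, 0.44, 1.32 and 1.43. The members had the higher medians at 30 min and 1 h and lay above the late gains at 2 h and 4 h as well. The DMSO libraries set these classes apart by definition, and the medians were not tested against each other.

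Genes of the inflammatory response held many members. The gene lists were cytokines, chemokines, NF-kB subunits and inhibitors, AP-1 and related factors, interferon, IRF and STAT genes, signalling feedback, enzymes and transporters, and receptors and surface proteins. They were chosen with earlier results of these data known. Of the 231 genes of these lists that were nearest to a CRE, 89 (38.5%) had a member, against 828 of all 14900 genes (5.56%). Genes with more nearest CREs can more easily have a member. Counted by CRE, 227 of the 2125 CREs nearest to these genes (10.7%) were members, against 2.35% of all CREs. These 227 members had a median LPS difference of 1.65 in CKI-treated cells, and all members 1.58. Of 20 genes of an IL-4 response list, Cish and Il1rl2 had 1 member each.

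Among cytokine genes, 13 of 25 had a total of 31 members. The other 155 tested CREs of these genes were called higher after LPS in CKI-treated cells at 1 or more times in 113 cases and lower in 1, where 13.3% and 13.9% of all CREs that were not members were called. At Il6, the acute-phase cytokine, a promoter CRE (chr5:30012104-30015562) held 30 and 31 normalized reads in the DMSO UT replicates. After LPS the replicates held 117 and 106 at 30 min, 271 and 257 at 1 h, 628 and 666 at 2 h, and 686 and 611 at 4 h. Its acetylation climbed until 2 h and stayed there. In CKI-treated cells the difference from UT was 1.06 ± 0.07 (SE) at 30 min and 2.58 ± 0.08 at 4 h, an increase of 1.53 ± 0.08 between these times. The CKI libraries held 29 to 152 normalized reads in UT (median 62) and 40 to 677 after LPS (median 281), and 199 of 241 LPS libraries exceeded the highest UT library.

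Il1a and Ifnb1 had other time courses. The intergenic Il1a CRE (chr2:129330051-129331528), near the gene of the alarmin interleukin 1 alpha, went from 17 and 11 in UT to 457 and 568 at 30 min, then to 318 and 289, 339 and 292, and 181 and 143 at 4 h. It was highest at the first time and remained above UT, as the choice required. In CKI-treated cells it was 3.31 ± 0.10 above UT at 30 min and 1.97 ± 0.10 at 4 h, a fall by 1.33. The Ifnb1 promoter CRE (chr4:88522030-88524302), at the gene of the type I interferon that macrophages secrete, went from 31 and 30 to 223 and 273, 472 and 423, 402 and 301, and 205 and 179. It peaked at 1 h in DMSO cells and, at 2.77 ± 0.09, in CKI-treated cells as well.

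Edn1, Csf1 and Il27 completed the named cytokine genes. The Edn1 CRE (chr13:42371607-42373221), 70.9 kb from the start of the endothelin 1 gene, went from 19 and 12 in UT to 124 and 154 at 30 min and 740 and 616 at 4 h. Its mean difference over the times in CKI-treated cells was 2.90, the highest among the cytokine members. The Csf1 CRE, 15.3 kb upstream of the macrophage growth factor gene, had a mean of 2.73 and the Il27 CRE, 1.80 kb upstream of the gene of the interleukin 27 subunit p28, 2.26. The members near Il1b included 1 of the 3 widest, 9717 bp across (chr2:129362501-129372217), which went from 135 and 102 in UT to 698 and 913 at 30 min and 643 and 576 at 4 h.

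Of 15 chemokine genes, 6 had 11 members, and LPS raised 23 and lowered 4 of the remaining 54 tested CREs of this list. The Ccl5 CRE (chr11:83529723-83537515), 3.10 kb upstream of the gene of the T cell attractant RANTES, went from 98 and 80 in UT to 1163 and 1381 at 30 min. It held 2418 and 2324 at 1 h, 3373 and 3576 at 2 h and 2937 and 2713 at 4 h, while the IL-4 libraries held 47 to 88. LPS values lay above those of IL-4 at every time, with no overlap, and above those of UT as the choice required. In CKI-treated cells 240 of 241 LPS libraries were above the highest UT library, and the mean difference was 3.15. At Cxcl10, the interferon-induced attractant of T cells, it was 2.37, at Ccrl2, an atypical chemokine receptor, 1.72, at Ccl12 1.62 and at Ccl9 1.253.

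The Cxcl2 CRE (chr5:90902362-90907595), at the gene of a neutrophil attractant, was the weakest of the named chemokine members. It went from 97 and 88 in UT to 498 and 481 at 30 min and 395 and 316 at 4 h in DMSO cells. In CKI-treated cells its difference was between 0.79 and 1.01 and was called higher at 1 h only, and 91 of 241 LPS libraries exceeded the highest UT library. UT libraries of CKI-treated cells held 110 to 397 normalized reads there, above both DMSO UT values.

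The NF-kB subunits and inhibitors had 51 members at 10 of 21 genes, the most of any list, and of the remaining 158 tested CREs of this list LPS raised 79 and lowered 4. Tnfaip3, which encodes the ubiquitin-editing inhibitor A20, had 15 members among its 36 nearest CREs, over 155.00 kb (chr10:18945798-19100757). The strongest of them (chr10:19077004-19079246), intergenic and 62.5 kb upstream, held 17 and 5 normalized reads in UT. It held 462 and 460 at 30 min of LPS, 669 and 626 at 1 h, 853 and 851 at 2 h, and 860 and 812 at 4 h. The IL-4 libraries held 12 to 24, close to the UT values and without overlap with the LPS libraries. In CKI-treated cells the difference was 3.27 ± 0.11 at 30 min and 3.75 ± 0.11 at 4 h (adjusted p 3.27e-135), and its mean of 3.52 was the highest of all members.

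The 15 Tnfaip3 members did not respond alike. Their mean difference in CKI-treated cells ranged from 1.03 to 3.52. The widest member of all, 16165 bp (chr10:18997399-19013563), covered an intron of the gene and went from 228 and 203 in UT to 899 and 1096 at 30 min and 2707 and 2333 at 4 h. The CREs 52.8 kb and 3.6 kb upstream rose between 30 min and 4 h in CKI-treated cells, by 1.49 ± 0.09 and 1.29 ± 0.11, while the strongest member had a difference of 0.48 ± 0.11 that was not called. These 3 differences were not tested against each other.

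Rel and Nfkb1 encode subunits of NF-kB itself. The intronic Rel CRE (chr11:23752520-23755285) went from 27 and 33 in UT to 460 and 489 at 30 min and 963 and 1058 at 2 h, and the intronic Nfkb1 CRE (chr3:135668834-135673388) from 25 and 25 to 300 and 289, and 934 and 894. Their mean differences in CKI-treated cells were 2.83 and 2.69. Traf1, Nfkbiz and Traf2, which encode an adaptor of TNF receptors, an atypical inhibitor-like coactivator and a further adaptor, had 2.74, 2.41 and 2.28. At Traf2 the difference rose from 1.33 ± 0.06 at 30 min to 2.90 ± 0.07 at 4 h. Nfkbiz had 12 members in all among 38 CREs over 218.8 kb, 1 of them 14138 bp wide.

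Of 32 genes of AP-1, ATF, C/EBP, EGR and related factors, 7 had 24 members, and their 420 other tested CREs were called higher in 95 cases and lower in 75. The Fos member (chr12:85512882-85514750), 39.9 kb from the gene of the AP-1 subunit, went from 23 and 13 in UT to 503 and 609 at 30 min and 474 and 532 at 1 h. It then held 232 and 212 at 2 h and 146 and 102 at 4 h. In CKI-treated cells its difference fell by 1.68 from 2.83 ± 0.09 at 30 min to 1.16 ± 0.10 at 4 h. The intronic CRE of Nr4a3, an orphan nuclear receptor gene of the immediate early class, likewise went from 10 and 10 to 331 and 332 at 1 h and 43 and 46 at 4 h. At 4 h it was 0.62 ± 0.09 above UT in CKI-treated cells and no longer called. Batf, the gene of an AP-1 family member of lymphoid and myeloid cells, had the opposite course, with an increase of 1.29 ± 0.10 between 30 min and 4 h. Hivep2 and Klf6, which encode zinc finger factors, had means of 2.52 and 2.38, and Ets2 had 1.80.

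Of 31 interferon, IRF and STAT genes, 4 (12.9%) had 13 members in all, where 5.56% of all genes had a member. Counted by CRE the share was 6.95%, against 2.35% of all CREs. Of the other 174 tested CREs of these genes, 60 were called higher and 20 lower. The intronic Gbp5 CRE (chr3:142498380-142500081), at the gene of an interferon-induced GTPase, went from 16 and 9 in UT to 74 and 39 at 30 min, 216 and 194 at 1 h, 327 and 374 at 2 h, and 513 and 403 at 4 h. The increase between 30 min and 4 h in CKI-treated cells was 2.08 ± 0.11. Socs3, a feedback inhibitor of cytokine receptors, had 8 members among its 10 nearest CREs, the strongest at 2.15 and the weakest at 1.26. Irf1, an interferon regulatory factor gene, had 1.33.

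Signalling feedback genes had 30 members at 12 of 33 genes, and LPS raised 75 and lowered 75 of the remaining 395 tested CREs. The Dusp2 CRE (chr2:127332538-127336956), 1.41 kb upstream of the gene of a MAP kinase phosphatase, was nearly level in time. It went from 100 and 93 in UT to 904 and 1037 at 30 min, 968 and 928 at 1 h, 1070 and 1023 at 2 h, and 1006 and 976 at 4 h. In CKI-treated cells the 4 differences lay between 2.14 and 2.29, with standard errors of 0.06 to 0.07. Ripk2, the gene of a kinase adaptor of NOD receptors, had a mean of 2.31, Irak2, a kinase of the TLR pathway, 2.16, and Pde4b, a phosphodiesterase that degrades cyclic AMP, 1.92. Zc3h12c and Gadd45a had 1.79 and 1.71.

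Enzymes and transporters had members at 18 of 32 genes, with 35 members, and 84 of their 219 other CREs were higher and 17 lower. Ptges, which encodes the synthase of prostaglandin E2, went at an intergenic CRE (chr2:30924331-30926279) from 17 and 8 in UT to 264 and 280 at 30 min and 759 and 688 at 4 h. All 241 CKI LPS libraries exceeded the highest UT library there, and the mean difference was 3.07. Sod2, the mitochondrial superoxide dismutase gene, had 2.75, Acod1, which encodes the enzyme that makes itaconate, 2.54, Mmp14, a membrane-bound protease gene, 2.28, and Ass1, of arginine synthesis, 2.12. The intronic CRE of Pfkfb3, whose product raises glycolytic flux, went from 29 and 19 to 71 and 94 at 30 min and 687 and 581 at 4 h, an increase of 2.01 ± 0.12 in CKI-treated cells.

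Receptors and surface proteins had 32 members at 19 of 42 genes, and among the 322 further CREs of these genes 112 were higher and 32 lower. The CRE 1.03 kb upstream of Fpr1 (chr17:17884116-17885820), a formyl peptide receptor gene, went from 10 and 13 in UT to 43 and 55 at 30 min, 213 and 208 at 1 h, 575 and 538 at 2 h, and 567 and 566 at 4 h. Its increase between 30 min and 4 h in CKI-treated cells, 2.52 ± 0.12 (adjusted p 6.20e-70), was the largest of all members. Adora2a, an adenosine receptor gene, had a mean difference of 2.72, Ccr7, a receptor for homing to lymph nodes, 2.65, Itgav, an integrin subunit gene, 2.07, and Cd40, a costimulatory receptor gene, 1.98.

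**Figure D4:**
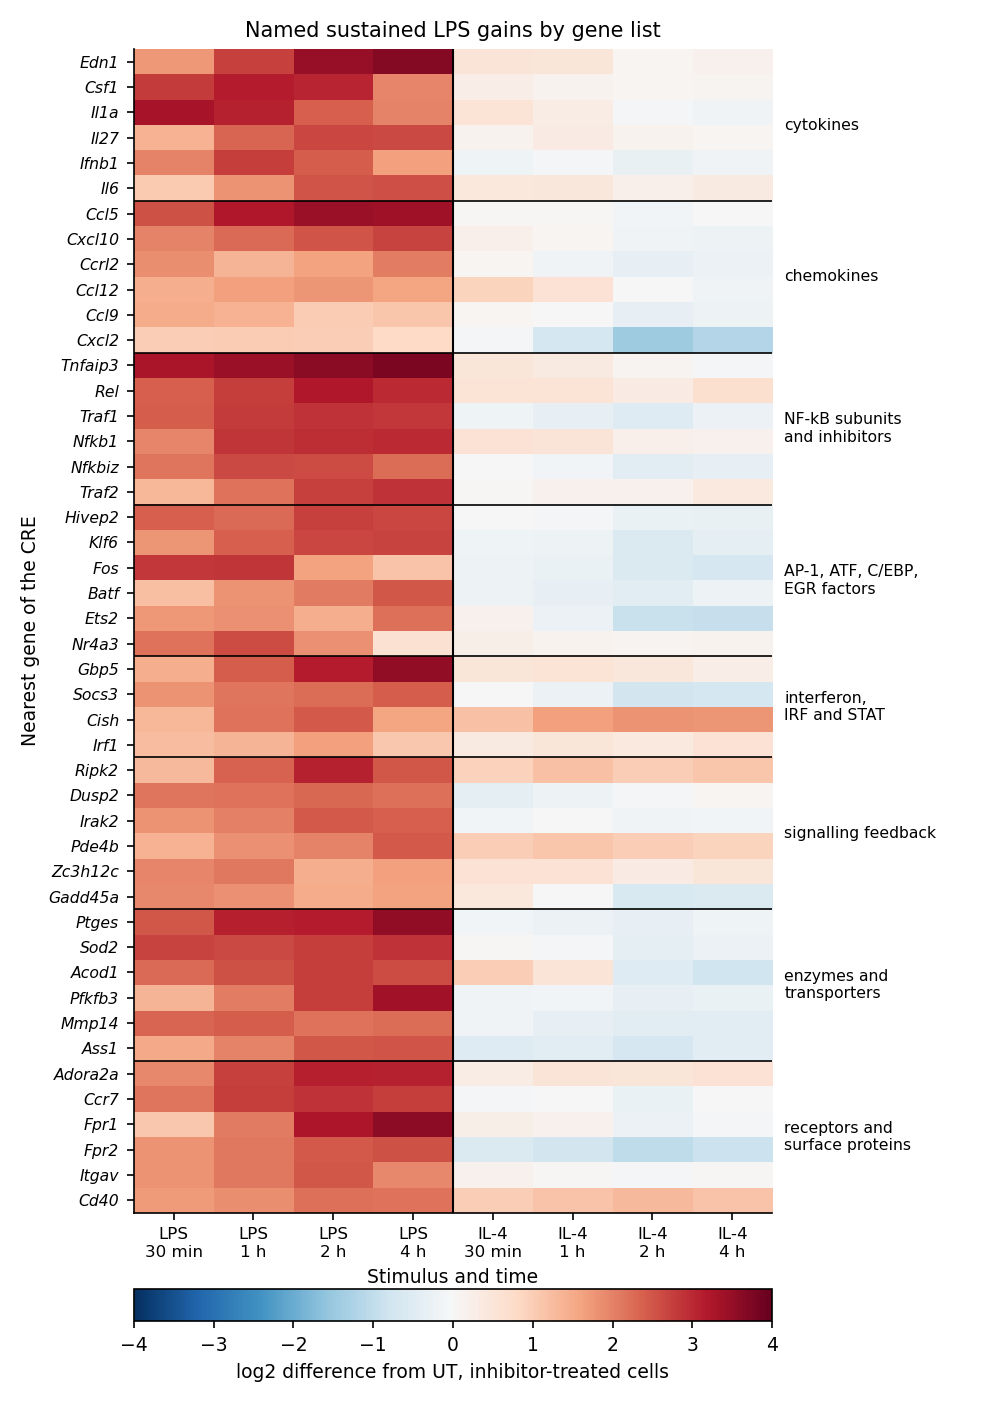
Heat map of the log2 difference from UT in CKI-treated cells for the 46 members named from the 8 gene lists (rows, grouped by list) at the 4 times of LPS and IL-4 (columns). All LPS cells are above 0, Il1a, Fos and Nr4a3 are highest at the early times, Il6, Gbp5, Pfkfb3 and Fpr1 at the late times, and Cish, Ripk2, Pde4b and Cd40 stand out after IL-4.

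The highest mean differences in CKI-treated cells also fell on CREs outside the gene lists. The CRE named after A730009L09Rik (chr16:84602912-84609422) went from 57 and 47 in UT to 1978 and 2066 at 30 min, 2186 and 1994 at 1 h, 2636 and 2467 at 2 h, and 2526 and 2170 at 4 h, with a mean difference of 3.46. The CRE named after Mrpl39 (chr16:84700412-84705833) went from 45 and 36 to 1089 and 962 at 30 min and 1949 and 1747 at 4 h, with 3.12. Both lie in 1 region that holds Mir155hg, the host gene of the microRNA miR-155, which is not protein-coding and so was not among the nearest genes. The second CRE has its centre 0.045 kb from the Mir155hg start and the first lies 97 kb away. The region within 200 kb of that start held 9 members with means from 1.64 to 3.46, a view chosen after these values were seen. The CREs at Shisa3 (3.28), Eci2 (3.01) and Bcl2a1d (3.004) were also among the 10 highest, and since Bcl2a1d has near-identical gene copies its reads could be split between them.

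At the other end, 5 members had mean differences from 0.51 to 0.72 in CKI-treated cells and were called at no time. They were named after Nckap1l, Myo1e, Dync1li1, Clvs1 and Fmnl2. The Fmnl2 CRE went in DMSO cells from 28 and 23 in UT to between 85 and 129 in the 8 LPS libraries. In CKI-treated cells its UT libraries held 26 to 147 normalized reads and its LPS libraries 37 to 216, and 26 of 241 LPS libraries exceeded the highest UT library.

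Members clustered along the genome. A member was the neighbouring CRE of 583 members (42.0%) and of 1984 CREs that were not members (3.43%), and 550 members (39.6%) lay within 10 kb of another. Of the 828 genes, 533 had 1 member, 173 had 2, and 122 had 3 or more. After Tnfaip3, the most were at Lpp with 14 of 56 CREs, an adhesion protein gene, and Nfkbiz with 12, followed by Etv6 and Hivep2 with 9 each and Socs3 and Zeb2 with 8 each. Adjacent CREs share sequence neighbourhood and sometimes 1 acetylated domain, so counts of members are not counts of separate loci.

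The rule set a floor at each time but no order of the times, and the time course was compared between 4 h and 30 min of LPS in CKI-treated cells. At 4 h 163 members were higher than at 30 min, or 11.7%, against 6.52% of all CREs, and 50 were lower, or 3.6%, against 3.32%. The median difference was 0.19 in the members and -0.09 in all CREs. The order in DMSO cells recurred in these libraries. Members that peaked at 30 min in DMSO cells had a median of -0.50, with 40 called lower, those that peaked at 1 h -0.06 with 9 lower, those at 2 h 0.32 with 60 higher and 1 lower, and those at 4 h 0.70 with 103 higher. Above 0 were 16 of 245, 123 of 290, 381 of 496 and 348 of 357.

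The members that rose most from 30 min to 4 h were those at Fpr1, Hibadh, Acsl5, Grem1 and Bcl2l14, with differences from 2.52 to 2.47. The CRE 5.04 kb from Acsl5, a gene of fatty acid activation, held 13 and 15 normalized reads in UT, 61 and 46 at 30 min, 96 and 142 at 1 h, 333 and 267 at 2 h, and 563 and 441 at 4 h. The members that fell most were those at Ifitm10, H2-Q6, H2-Q4, H2-Q7 and Fos. The intronic Ifitm10 CRE (chr7:142358961-142364159) went from 35 and 31 in UT to 683 and 907 at 30 min, 541 and 500 at 1 h, 108 and 154 at 2 h, and 190 and 132 at 4 h. Its difference fell by 2.06 in CKI-treated cells. The 3 H2-Q CREs lie at near-identical class I histocompatibility genes, so reads could be split between copies and they are not 3 separate observations. All 3 held an NF-kB match and an IRF match in their central 300 bases.

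The question whether LPS gains are shared with IL-4 was put to the CKI libraries. After IL-4 the median difference from UT was 0.19 at 30 min, 0.09 at 1 h, -0.11 at 2 h and -0.05 at 4 h. The median over all CREs was 0.12, 0.10, 0.001 and 0.05, so that of the members was the higher one at 30 min only. At 30 min 103 members were called higher, or 7.42%, against 3.73% of all CREs, at 1 h 100 against 4.11%, at 2 h 73 against 3.8% and at 4 h 67 against 3.3%. Lower were 40 at 2 h, or 2.88%, against 3% of all CREs, and 27 at 4 h, or 1.95%, against 2.22%. IL-4 raised 50 members at all 4 times, where 2.16% of all CREs were called. It raised 130 (9.37%) at 1 or more times, against 5.39%, and lowered 47 (3.39%) at 1 or more times, against 3.49%, and no member was in both groups. These counts move with the threshold and scaling more than those after LPS.

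LPS was compared with IL-4 directly at matched times. LPS was higher at 843 members at 30 min, against 4.47% of all CREs, at 1106 at 1 h against 7.41%, at 1180 at 2 h against 11%, and at 1171 at 4 h against 11%. The median difference was 1.18, 1.52, 1.74 and 1.64. IL-4 was higher than LPS at 7 members at 1 or more times (0.504%), while 14.9% of all CREs were called in that direction. The gap between the stimuli was thus present at most members already at 30 min.

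The members that IL-4 raised most were those at Rasgrp1, Slc38a11, Slc30a4, Ppp2r3a and Cggbp1, with mean differences from UT between 2.21 and 2.79 in CKI-treated cells. The promoter CRE of Rasgrp1 (chr2:117341420-117343093), the gene of an activator of Ras, held 12 and 11 normalized reads in DMSO UT cells. It held 43 and 48 at 30 min of LPS and 136 and 148 at 4 h, and 185 and 153 at 30 min of IL-4 and 283 and 254 at 4 h. IL-4 values exceeded LPS values at both times. In CKI-treated cells its IL-4 libraries held 94 to 407 and its UT libraries 9 to 71, without overlap.

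Among the inflammatory genes, IL-4 raised the members at Cish, Cd40, Ripk2 and Pde4b. The promoter CRE of Cish (chr9:107293642-107297568), a STAT-induced inhibitor of cytokine signalling, held 68 and 73 in UT. After LPS it held 244 and 297 at 30 min, 747 and 808 at 2 h and 327 and 311 at 4 h, and after IL-4 296 and 256 at 30 min and 428 and 404 at 4 h. IL-4 values were the higher ones at 4 h, LPS values at 2 h. In CKI-treated cells it was called higher after IL-4 at all 4 times, with differences from 1.16 to 1.79. The Cd40 promoter CRE was called at 1 h, 2 h and 4 h, the Ripk2 CRE at 1 h and 4 h and the Pde4b CRE at 1 h, with means of 1.14, 1.04 and 0.99.

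The members that IL-4 lowered most were those at Bach2, Lipg, Dynlrb2, Ergic1 and Gm16181, with means between -0.92 and -1.06, and each was called lower at 2 h and 4 h. The intronic CRE of Bach2 (chr4:32390603-32393808), a repressor gene of lymphocytes, held 103 and 73 in UT, 353 and 456 at 30 min of LPS and 317 and 272 at 4 h. After IL-4 it held 49 and 54 at 30 min and 34 and 29 at 4 h, below both UT replicates while LPS values lay above them. The chemokine member Cxcl2 was also lowered at 2 h and 4 h and the intronic CRE nearest to Fpr2 at 2 h. The 47 members lowered by IL-4 had a median DMSO UT value of 74.5, against 25 in all members.

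In DMSO cells IL-4 at 4 h was compared with IL-4 at 30 min, since none of these libraries chose the members. By limma, at an adjusted p under 0.05 and a log2 difference over 0.5, 433 of 1307 tested members (33.1%) were lower at 4 h, against 17% of 47098 tested CREs. Higher at 4 h were 63 (4.82%), against 9.26%. The median was -0.40 in the members and -0.04 in all CREs. The Acod1 CRE (chr14:103015291-103016913) held 189 and 181 normalized reads at 30 min of IL-4, 108 and 176 at 1 h, 77 and 70 at 2 h and 29 and 28 at 4 h, against 46 and 32 in UT, and its difference between the times was -2.5 (adjusted p 6.1e-14). At Ets2 the difference was -2.34, at Il1b -1.87 and at Cxcl2 -1.86. The Slc30a4 and Cggbp1 CREs, which IL-4 raised, were higher at 4 h by 0.74 and 1.39.

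Each CKI was compared after LPS with the mean of the other 57, since DMSO had chosen the members, at an adjusted p under 0.05 and a log2 difference over 0.5. Over all compounds, 2668 pairs of member and CKI were called lower, against 1.41% of all pairs of CRE and CKI, and 992 higher, against 0.906%. There were 27 CKIs with no member called in either direction. Most compounds have 1 library per time, so the error came from all compounds together. Libraries with the suffix b entered as separate libraries and were not averaged. Afatinib thus had 8 LPS libraries, where Omipalisib, PH797804, AZD2014 and Vatalanib had 4 each. Calls are easier with more libraries, so its counts are not like for like with theirs.

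Omipalisib, a PI3K and mTOR inhibitor, had the most members lower, 511 (36.8%), against 7.66% of all CREs. PH797804, a p38 inhibitor, had 483 (34.8%) against 9.89%, Afatinib, an inhibitor of the EGFR family, 433 (31.2%) against 6.65%, AZD2014, an mTOR inhibitor, 377 (27.2%) against 9.42%, and Vatalanib, a VEGFR inhibitor, 154 (11.1%) against 3.34%. Members higher numbered 20, 9, 0, 3 and 1 in the same order, against 18%, 13.4%, 0.409%, 3.72% and 1.8% of all CREs. Of the 46 members named from the gene lists, Omipalisib lowered 24 and raised Ccrl2, PH797804 lowered 26, Afatinib 19, AZD2014 11 and Vatalanib 6. With Omipalisib the Fpr1 CRE was lower by a log2 difference of -1.38 ± 0.27 (SE), Gbp5 by -1.01 ± 0.23, Tnfaip3 by -0.94 ± 0.21, Cxcl2 by -0.75 ± 0.15 and Il6 by -0.20 ± 0.17, the last not called. Tnfaip3, Klf6, Cd40, Adora2a, Ass1 and Pfkfb3 were lower with each of Omipalisib, PH797804, Afatinib and AZD2014.

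These libraries had low contrast. The median contrast of the LPS libraries was 6.26 with Omipalisib, 5.84 with PH797804, 10.65 with Afatinib, 6.91 with AZD2014 and 8.11 with Vatalanib, where the median over CKI LPS libraries was 14.17. With the contrast of the library as a covariate, Omipalisib lowered 223 members (against 4.27% of all CREs), PH797804 208 (7.59%), Afatinib 351 (8.23%), AZD2014 161 (6.3%) and Vatalanib 45 (1.69%). For the gain of LPS over UT of the same compound, Omipalisib lowered 11 (0.0406%) and Afatinib 258 (1.76%), and limma called 0 with the other 3, where the members lower at an unadjusted p under 0.05 were 338 with PH797804, 184 with AZD2014 and 93 with Vatalanib. Against compounds of the same run in the table, Omipalisib lowered 146 (1.82%), PH797804 765 (15.3%), Afatinib 35 (1.02%) and AZD2014 33 (1.22%). Vatalanib lowered 0 by limma there, with 62 at an unadjusted p under 0.05. Without the 30 min LPS library of PH797804, which had the lowest total of all, that compound lowered 159 members, not 483, against 2.2% of all CREs. It raised 53 (3.82%) in that setting, against 30.1% of all CREs.

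The most members called higher were with Selumetinib, a MEK inhibitor (254, against 2.09% of all CREs), GSK461364, a PLK1 inhibitor (182, against 2.09%), Refametinib, a MEK inhibitor (163, against 1.62%), the ONO4059 analogue, a BTK inhibitor (146, against 1.44%), and TG100115, a PI3K inhibitor (58, against 1.27%). Members lower numbered 1, 2, 1, 1 and 13 in the same order, against 7.81%, 6.29%, 2.67%, 2.46% and 1.88% of all CREs. Selumetinib raised 16 of the 46 named members, Tnfaip3 by 0.80 ± 0.21, Cd40 by 0.76 ± 0.14 and Traf1 by 0.71 ± 0.16. The first 4 of these compounds had a median contrast of 35.09 to 38.70, were all in 1 run, and had 0 members higher by limma with contrast as a covariate, for the gain over UT, after quantile normalization or against compounds of the same run. At an unadjusted p under 0.05 they had 84 to 136 members higher with the covariate, 178 to 318 for the gain, 65 to 109 after quantile normalization and 46 to 111 within the run. TG100115 had a contrast of 18.06 and 64 (against 1.71% of all CREs), 2 (0.0203%), 36 (1.05%) and 0 members higher in these settings, the last with 31 by limma at an unadjusted p under 0.05. IMD0354, an inhibitor of the NF-kB-activating kinase IKK2, had 1 member lower, against 0.304% of all CREs, and 7 higher, against 0.0777%, among them Nfkb1 with 0.55 ± 0.14.

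**Figure D5:**
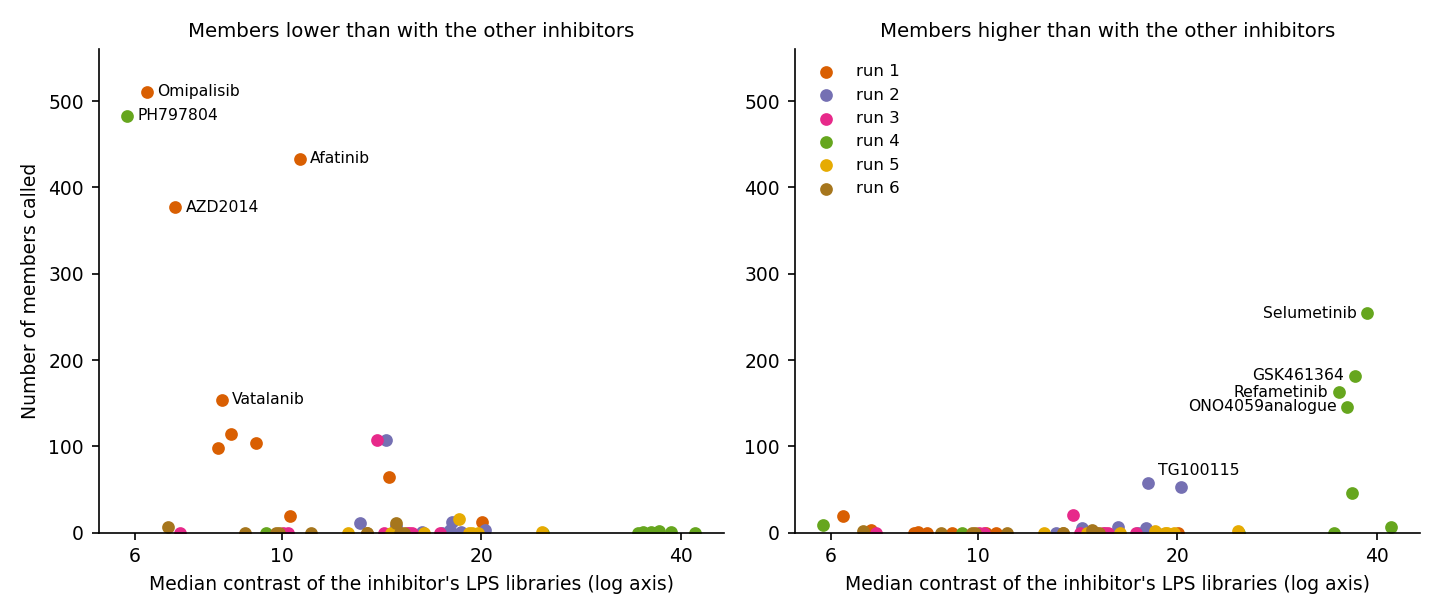
Number of members called lower (left) and higher (right) with each CKI against the other CKIs after LPS (vertical axis), by the median contrast of its LPS libraries (horizontal log axis), coloured by run of columns. The compounds with the most members lower, Omipalisib (511) and PH797804 (483), lie at contrasts of 6.26 and 5.84, and those with the most members higher at 35.09 to 38.70.

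Classes of CKIs were compared with all other compounds, with the compound as the replicate. The 5 inhibitors of mTOR, alone or together with PI3K, were Apitolisib, AZD2014, BGT226, Omipalisib and PF04691502, while the PI3K inhibitors TG100115 and AZD8186 were among the other compounds. They had 41 members lower (2.95%), against 0.492% of all CREs, and 0 higher by limma (452 lower, or 32.6% against 11.3% of all CREs, and 17 higher at an unadjusted p under 0.05), with a median difference of -0.19 in members and 0.09 in all CREs. Among the named members, Edn1 (-0.56 ± 0.12, adjusted p 0.00784) and Adora2a (-0.50 ± 0.14, adjusted p 0.0334) were called. Without Omipalisib 1 member was called lower, where 14 of 59168 CREs were, and without AZD2014 5, where 40 were. Without Apitolisib it was 113, where 838 CREs were, and without PF04691502 119, where 753 were. With the run as a factor it was 21, where 127 CREs were. By limma 0 members were called in either direction for MEK and ERK, p38 and JAK inhibitors. At an unadjusted p under 0.05, MEK and ERK inhibitors had 4 members lower (0.288%, against 7.28% of all CREs) and 430 higher (31%, against 7.7%). The p38 inhibitors had 31 lower (2.23%, against 1.61%) and 22 higher (1.59%, against 2.35%), and the JAK inhibitors 24 lower (1.73%, against 1.7%) and 3 higher (0.216%, against 0.343%). The unadjusted counts moved with the setting. With the run as a factor, p38 inhibitors had 385 lower (27.7%, against 7.02%) and JAK inhibitors 54 higher (3.89%, against 2.48%). Without PH797804 the p38 inhibitors had 1 lower (0.0720%, against 0.355%). MEK and ERK inhibitors had 134 higher (9.65%, against 3.58%) after quantile normalization and 198 (14.3%, against 4.07%) without Selumetinib. These classes hold 4 to 6 compounds, and whether they differ from each other was not tested.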

How the data were processed

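H3K27ac ChIP-seq values of 564 libraries were taken from the deposited table. Per the labels and the study's methods, the authors trimmed single-end reads to 51 bases, mapped them to mm10 with ShortStack (the submitters' processing notes also name Bowtie and SAMtools) and counted reads at ATAC-seq peaks. They scaled each library by invariant peaks with GeneralNormalizer and rounded the result. The deposited values are therefore a score, the normalized read count, and not raw counts, so count models were not used, and sequencing depth is not given by their totals (4066894 to 12391409). Depth and scaling can affect low CREs most.

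The members, gene lists, marker lists and tests were chosen with earlier results of these data known. Groups were taken from the treatment labels. On the scale log2(value + 5), contrasts were fitted by limma 3.58.1 under R 4.3.3 (this scale understates changes of low CREs) over CREs with a mean of at least 10, with Benjamini-Hochberg adjustment over all CREs tested. Stimulus contrasts used the 546 CKI libraries with compound and condition as factors (adjusted p under 0.01, log2 difference over 1). CKI, class and DMSO IL-4 contrasts used an adjusted p under 0.05 and a log2 difference over 0.5. The fits were tested on simulated data. Python 3.11.15, numpy 2.4.6, pandas 2.3.3 and pysam 0.24.0 were used for members, motifs and sequences, with the GENCODE vM21 annotation of mm10, the RefSeq genome of the same build (GRCm38) and RefSeq promoter windows.

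Named CREs were, for each of 8 gene lists, the strongest member of up to 6 genes by mean LPS difference in CKI-treated cells, then the 10 highest and 5 lowest members, the 5 highest and 5 lowest after IL-4, the 5 largest rises and falls between 30 min and 4 h, the 3 CREs on each side of the threshold, and the 3 widest members. Named CKIs were the 5 with the most members lower, the 5 with the most higher, and IMD0354. Runs are the 6 consecutive blocks of CKIs in column order, and the labels name no batch. Alternatives were other pseudocounts, thresholds and scalings, omitted libraries and added covariates.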

Additional observations from a re-analysis of the deposited data

Results flagged for a closer look

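The time course of the members after LPS differed between them in cells treated with CKIs, by a limma contrast of 4 h against 30 min. There were 163 members higher at 4 h (11.7%, against 6.52% of all CREs) and 50 members lower (3.6%, against 3.32%), the latter share being near that of all CREs. The CREs that rose included those at Fpr1, Il6, Gbp5 and Pfkfb3, and those that fell included Il1a, Fos and Nr4a3. Over the 4 named classes of CKIs, 8 summed measures of the members were examined for a compound far from the rest of its class, and none was found. The closest to its critical value was the level of the members with Tofacitinib among the 6 JAK inhibitors, at 0.27 relative to all compounds, where the gap to the next compound was 0.57 of the range of the class.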

How the results depend on the processing

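The LPS gains in CKI-treated cells kept their direction and stayed within 1.5 times their counts under all alternatives run. Of the main results examined, 314 alternative values lay close to the reported ones and 61 did not. The remaining values were those of single CREs and the shares of members with a motif or near a transcription start. Among them 797 were close, 12 moved, 16 came past the threshold and 8 fell short of it, and none reversed. The counts after IL-4 moved with the settings. With a log2 threshold of 0.5, IL-4 raised 322, 270, 178 and 176 members in order of time, not 103, 100, 73 and 67, raised 370 at 1 or more times and 139 at all 4 times, not 130 and 50, and lowered 18, 73, 238 and 193, with 266 at 1 or more times, not 47, and 12 at all 4 times. At that threshold LPS was above IL-4 at all 4 times at 1181 members, not 756, and below it at 13, 10, 15 and 18, not 5, 3, 3 and 5, and between 30 min and 4 h of LPS 440 rose and 194 fell. With a pseudocount of 20, IL-4 raised 67 members at 30 min, lowered 9 at 2 h, 9 at 4 h and 11 at 1 or more times, and LPS was below IL-4 at 2 members at 30 min and 2 at 4 h. With a pseudocount of 1, IL-4 lowered 3 at 1 h, 64 at 2 h, 45 at 4 h and 73 at 1 or more times, and LPS was below IL-4 at 5 at 2 h. Quantile normalization gave 67 raised by IL-4 at 30 min, 19 lowered at 2 h, 15 at 4 h and 23 at 1 or more times, LPS below IL-4 at 3 at 30 min, 1 at 2 h and 3 at 4 h, and 101 members higher at 4 h than at 30 min of IL-4 in DMSO cells, not 63. Without the tenth of libraries of lowest contrast, IL-4 lowered 2 at 1 h and 45 at 4 h, and LPS was below IL-4 at 5 at 1 h. These counts are given for the members alone, and the cause was not tested. Counts over all CREs can move with these settings as well. At 30 min of LPS, 3575 of all CREs were called higher as reported, 12196 with a log2 threshold of 0.5 and 2137 with a pseudocount of 20. The members called there were 1182, 1383 and 940. The shifts above are therefore not shown to be particular to the members.

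The pairs of member and CKI called lower numbered 2668 as reported, 1349 against the same run, 1748 after quantile normalization, 1599 with contrast as a covariate and 553 for the gain over UT, and those called higher 992, 109, 230, 176 and 125. These too are counts of members alone. Quantile normalization gave 1 member lower with p38 inhibitors and 1 higher with the 5 inhibitors of mTOR. For the latter class the run as a factor gave 21 lower, not 41, and leaving out 1 compound gave 1 to 119 lower and 0 to 3 higher. In DMSO cells, leaving out 1 library of IL-4 at 30 min or 4 h gave 40 to 69 members higher, with 40 without replicate 2 of 30 min, and 326 to 387 lower, where the remaining library is assumed to vary like the others. A fit with the replicate block gave 437 lower and 63 higher, against 433 and 63. The labels share only a number between conditions, and over 36 pairs of DMSO conditions the deviations of equal numbers correlated between -0.087 and 0.066, so the samples were not treated as paired. A UT minimum of 20 in place of 10 left 832 members. The settings that left out libraries by total or contrast or used contrast as a covariate were chosen after seeing the data. Most CKIs have 1 library per time, sequencing depth is unknown, and low CREs are the least precise.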
